A study of Mus musculus with 8 samples.

Results

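Across 8 RNA sequencing libraries of mouse CD4+ T cells, 10 receptors of the TNF receptor superfamily were followed, namely Tnfrsf25, Tnfrsf1a, Fas, Tnfrsf1b, Tnfrsf4, Tnfrsf18, Tnfrsf9, Tnfrsf8, Cd27 and Tnfrsf14. They were taken by gene symbol, and all 10 were found among the 54446 genes of the colon files and the 55341 genes of the culture files. In the colon, T cells came from Tcrbd-/- recipients, which lack T cells of their own but keep other immune cells, 6 weeks after they had been given naive CD4+ cells. The donors were Rora_fl/fl mice (control, 2 libraries) or Cd4_cre Rora_fl/fl mice (knockout, 2 libraries), so that controls also carry the floxed alleles but no Cre. The Cd4-driven Cre acts throughout the CD4 lineage, so the deletion is not restricted to Th17 cells. In culture, naive cells of the same genotypes were activated for 4 days on plate-bound anti-CD3 and anti-CD28 toward the Th17 fate. The cytokines were TGF-β plus IL-6 (called the TGF-β mix) or IL-6, IL-1β plus IL-23 (called the IL-23 mix), and each mix gave 1 control and 1 knockout library. Every library was made after 2 hours of PMA and ionomycin, so that all levels are those of restimulated cells. Of the receptor genes, 7 lie on chromosome 4, 2 on chromosome 6 and 1 on chromosome 19. Ages, sexes and the number of mice per library are not given in the sources used here.

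TNF receptors are surface proteins that bind trimeric ligands of the TNF family. Receptors with a death domain (DR3, encoded by Tnfrsf25, TNFR1, encoded by Tnfrsf1a, and Fas) recruit adaptors such as TRADD or FADD and can start either NF-κB signalling or caspase-driven death. The others recruit TRAF proteins, activate NF-κB and act mainly as costimulatory receptors on T cells: TNFR2 (Tnfrsf1b), OX40 (Tnfrsf4), GITR (Tnfrsf18), 4-1BB (Tnfrsf9), CD30 (Tnfrsf8) and CD27. HVEM (Tnfrsf14) binds the ligand LIGHT and also the inhibitory receptors BTLA and CD160. Rora encodes RORα, a nuclear receptor that helps to set the Th17 program.

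Libraries held 13176752 to 15922696 counts. Rora stood at 252 and 290 CPM (read counts scaled to a common library size) in the colon controls and 133 and 149 in the colon knockouts, and was lower in the knockout of each culture mix (189 against 499 CPM in the TGF-β mix, and 59.0 against 152 in the IL-23 mix). The files count whole genes, so the deleted stretch was not measured apart. All 13 T cell markers were detected in each condition, but their summed level in the colon was 10800 to 11100 CPM in controls and 8490 to 8780 in knockouts. Summed levels of 5 lists of other cell types were higher in the colon knockouts: 2070 to 2250 against 572 to 584 CPM for 9 B and plasma cell markers, 126 to 127 against 49.9 to 52.5 for 11 epithelial markers, 113 to 120 against 29.6 to 36.7 for 9 fibroblast markers, 65.9 to 67.0 against 41.9 to 42.9 for 10 macrophage markers, and 494 to 519 against 341 to 348 for 8 dendritic cell markers. Within the dendritic list Cd74, H2-Aa, H2-Ab1 and Itgax rose, whereas Zbtb46 and Xcr1 fell (by 0.52 and 0.29 on the log2 scale). Among these 5 lists Ms4a1 and Krt20 were the markers at 0 in the controls, and none was at 0 in the knockouts. The sums were lower in the knockouts for 2 CD8 markers (3.06 and 3.81 against 21.6 and 19.6 CPM) and 5 NK markers (17.4 and 18.9 against 25.8 and 29.4), and they overlapped between genotypes for 7 endothelial markers (100 to 105 CPM) and 6 neutrophil markers (1.36 to 2.32). The lower CD8 sum was that of Cd8a (20.1 and 17.5 CPM in controls, 2.04 and 2.07 in knockouts). Cd8b1 overlapped between genotypes (1.46 and 2.07 CPM in controls, 1.02 and 1.74 in knockouts). Most of the NK sum was Eomes, while Ncr1 was at 0.16 and 0.21 CPM in controls and 1.02 and 0.90 in knockouts. Nearly all of the endothelial sum was Pecam1 (95.1 to 104 CPM). Cdh5 (0.24 and 0.14 CPM in controls, 1.02 and 1.61 in knockouts) and Vwf (0.32 and 0.64, then 2.25 and 1.55) were higher in the knockouts. In bulk RNA of this kind, fewer cells that carry a receptor and less RNA per cell cannot be told apart.

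In the colon, 7 of the 10 receptors changed with Rora loss: Tnfrsf25, Tnfrsf1a, Tnfrsf1b, Tnfrsf4 and Tnfrsf18 fell, and Cd27 and Fas rose. Tnfrsf25 was the largest change, with knockouts at 24.9% of the control level. Tnfrsf9, Tnfrsf8 and Tnfrsf14 did not pass the test. Of all 13101 genes tested, 39.5% passed the same threshold (an adjusted p under 0.05), 19.6% higher and 19.9% lower, so passing was common. The median log2 change of the 10 receptors was -0.32, and that of all genes was 0.01.

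**Figure D1:**
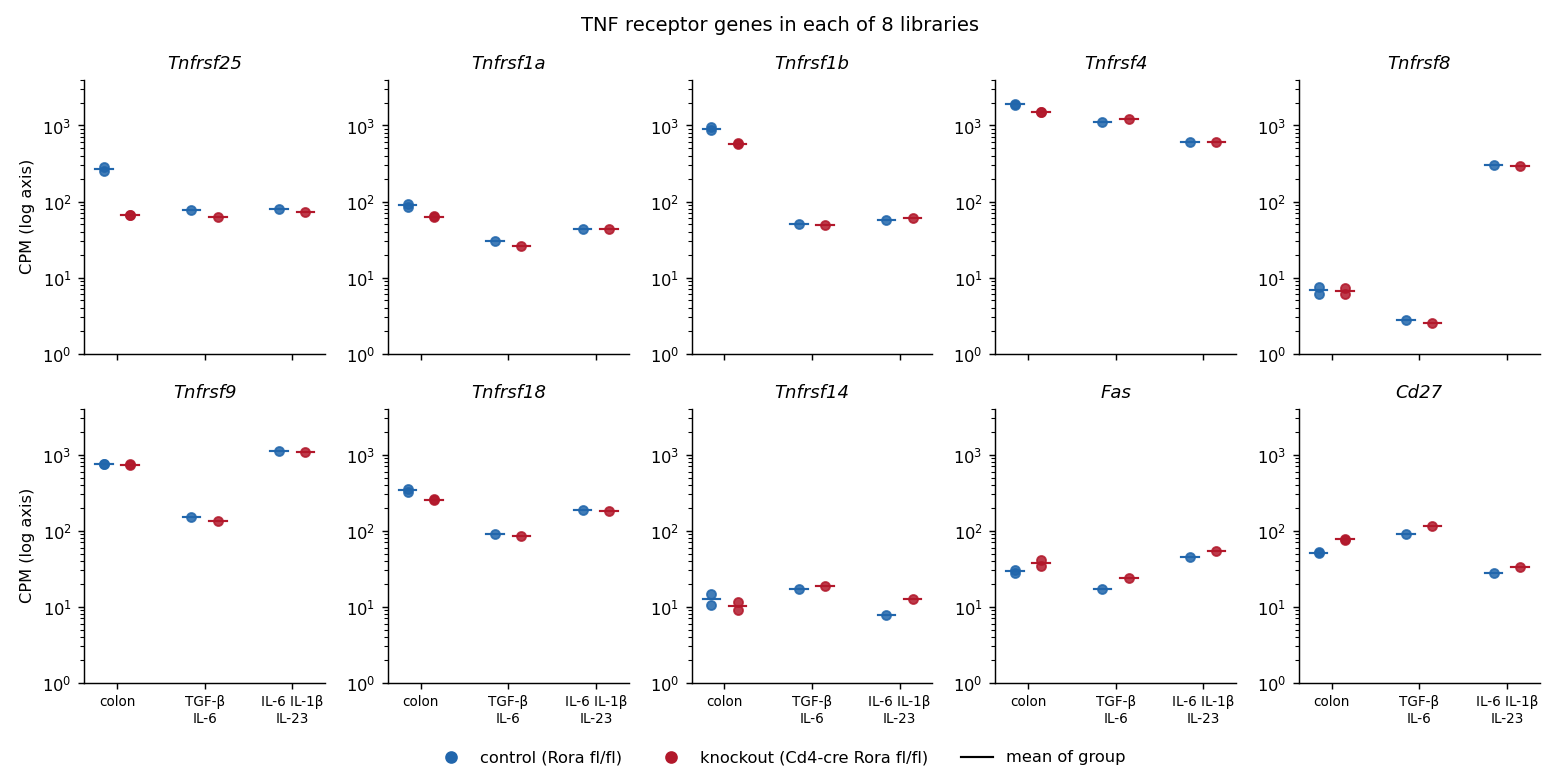
Level of each receptor (CPM, log axis) in each of the 8 libraries, with colon and culture scaled separately. Points are single libraries, coloured by genotype, and bars are group means. Tnfrsf25 stands at 255 and 282 CPM in the colon controls and at 62.8 to 78.9 in the other 6 libraries, and Tnfrsf8 is high only in the libraries of the IL-23 mix.

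Tnfrsf25 encodes DR3, the receptor for TL1A, a ligand linked to intestinal inflammation. Its level was 255 and 282 CPM in the controls and 66.4 and 67.2 CPM in the knockouts. Both controls lay far above both knockouts, and the knockout libraries stood at the level of the cultured cells (62.8 to 78.9 CPM), although colon and culture were scaled apart. The fall was 4.02-fold (log2 change -2.01 ± 0.09 SE, n = 2 per group, adjusted p = 4.8e-08, edgeR quasi-likelihood test). By p-value it had rank 11 of the 13101 genes tested. Leaving out any of the 4 libraries gave log2 changes between -2.09 and -1.94. The gene lies at chr4:152115934-152120119 on the plus strand (GRCm38/mm10, GENCODE M21).

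Stretches near the Tnfrsf25 start sites are shown because RORα binds DNA with the core letters AGGTCA. RefSeq (GRCm38.p6) lists an outer and an inner start for the gene. The first line gives the 250 bases before the outer start (chr4:152115684-152115933, plus strand), where capitals mark matches to GGG, 5 bases of any kind and CC, a loose form of the NF-κB site. The second gives 30 bases of the plus strand (chr4:152116144-152116173) holding the AGGTCA match nearest the inner start, 187 bases before it, where the capitals are its reverse complement.
Tnfrsf25 outer start: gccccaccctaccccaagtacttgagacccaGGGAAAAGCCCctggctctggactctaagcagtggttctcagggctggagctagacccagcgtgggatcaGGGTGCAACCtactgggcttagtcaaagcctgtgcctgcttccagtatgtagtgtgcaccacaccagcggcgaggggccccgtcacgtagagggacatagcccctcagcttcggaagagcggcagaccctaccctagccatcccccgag
Tnfrsf25 inner start: ctgtccagaaccTGACCTgtagccctggaa
Searched on both strands over the 250 bases before each start, AGGTCA was found in 1 of the 12 promoters of the 10 receptors, this one, and in 14.0% of 32817 mouse promoters. A match is a description of the letters and not a measured binding site.

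The other receptors with a death domain moved in opposite directions. Tnfrsf1a, the receptor that carries most TNF signalling to death or NF-κB, was at 93.7 and 84.4 CPM in controls and 63.9 and 61.9 CPM in knockouts. The knockouts were both lower, at 70.7% of the control level (log2 change -0.50 ± 0.09, adjusted p = 0.001). Fas (chr19:34290666-34327772), the receptor that kills activated T cells when bound by Fas ligand, was at 30.8 and 28.1 CPM in controls and 34.3 and 41.1 CPM in knockouts. Knockouts were higher without overlap (log2 change 0.36 ± 0.11, adjusted p = 0.027), but the knockouts themselves were spread. The Fas call was lost without control replicate 2 (adjusted p = 0.12), without knockout replicate 2 (0.26) and in DESeq2 (0.084).

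Tnfrsf1b and the neighbouring pair Tnfrsf4 and Tnfrsf18 fell by less than Tnfrsf25. TNFR2, encoded by Tnfrsf1b, is the TNF receptor without a death domain and is abundant on regulatory and effector T cells. Its level was 943.8 and 880.0 CPM in controls and 589 and 564 CPM in knockouts. That is 63.2% of the control level, with both knockouts below both controls (log2 change -0.66 ± 0.08, adjusted p = 8.5e-05). OX40, encoded by Tnfrsf4, sustains activated CD4+ cells, and stood at 1936 and 1868 CPM in controls and 1493 and 1506 in knockouts. All 4 libraries were high, and the knockouts were lower without overlap (log2 change -0.34 ± 0.08, adjusted p = 0.0039). GITR, encoded by Tnfrsf18, costimulates effector cells and marks regulatory cells. It was at 354 and 327 CPM in controls and 258 and 257 in knockouts, again without overlap (log2 change -0.40 ± 0.08, adjusted p = 0.0019). Tnfrsf18 shares 334 exon bases with the antisense gene Gm16008, and without a stated strand setting their reads cannot be told apart. Regulatory T cell markers did not all move with these receptors. Foxp3, their defining factor, was at 103 and 99.0 CPM in controls and 108 and 106 in knockouts and did not pass the test. Il2ra and Ctla4 each fell by 0.34, while Ikzf2 and Nrp1 rose by 1.15 and 2.19 on the log2 scale. Lrrc32, another of these markers, also rose, from 41.25 and 41.11 CPM in controls to 75.51 and 68.71 in knockouts. The part of those cells in the receptor changes was not tested.

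CD27, the receptor for CD70, is typical of naive and central memory T cells and is also carried by memory B and plasma cells. Its level was 50.4 and 52.3 CPM in controls and 77.9 and 76.6 CPM in knockouts. Both knockouts were higher, at 150.4% of the control level (log2 change 0.59 ± 0.09, adjusted p = 3e-04). B and plasma cell transcripts were also higher in these 2 libraries: Igha was at 385 and 379 CPM in controls and 1414 and 1505 in knockouts, and Jchain at 25.4 and 24.8 against 137 and 153. Their part in the rise of Cd27 was not tested. In the cultures, where Igha was at most 0.07 CPM, Cd27 stood at 27.7 to 115 CPM.

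The remaining 3 receptors gave no call in the colon. Tnfrsf9 lies at chr4:150914562-150946102 and Tnfrsf14 at chr4:154921933-154928563. Tnfrsf9 (4-1BB, a costimulatory receptor induced by activation) was at 756 and 757 CPM in controls and 732 and 746 in knockouts, a gap of 0.03 on the log2 scale (SE 0.08, adjusted p = 0.75). Tnfrsf8 was near 7 CPM in all 4 libraries (6.14 and 7.39 in controls, 6.07 and 7.35 in knockouts), and the groups overlapped. Tnfrsf14 overlapped too, with 10.6 and 14.9 CPM in controls and 9.17 and 11.5 in knockouts (adjusted p = 0.22). It passed without control replicate 2 (log2 change -0.54, adjusted p = 0.025) or without knockout replicate 1 (-0.49, adjusted p = 0.03).

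**Figure D2:**
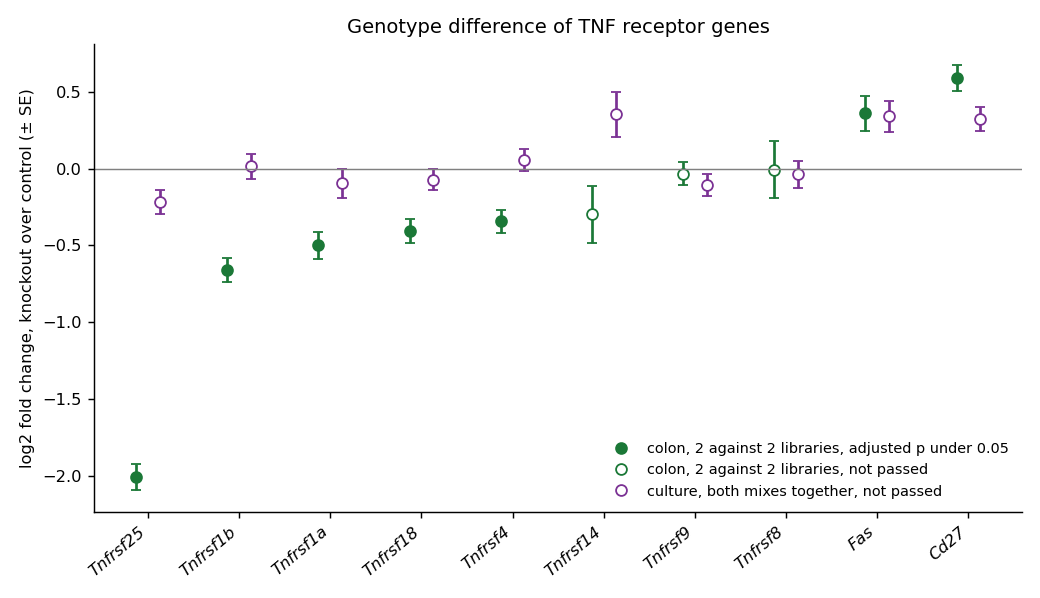
Log2 change of knockout against control for each receptor, with its standard error, in the colon (2 against 2 libraries) and in culture (1 pair per mix). Filled points passed an adjusted p of 0.05. In the colon 5 receptors lie below 0 and 2 above 0 as filled points, and no receptor does in culture.

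The scaling of the libraries bears on the smaller changes in the colon. The main scaling (TMM) assumes that most genes do not move. With library totals in its place the median of all genes shifted by 0.19 on the log2 scale and 77.2% of the genes that passed were higher, against 49.6% with TMM. With scaling on the 13 T cell markers, whose sum was lower in the knockouts, the shift was 0.34 and the share 89.6%. The markers did not all move alike: with TMM 10 fell, 2 did not pass and 1, Cd28, rose (261 and 299 CPM in controls, 321 and 344 in knockouts). Tnfrsf25 (-1.82 and -1.67 on the log2 scale), Tnfrsf1b (-0.47 and -0.32), Fas (0.55 and 0.70) and Cd27 (0.78 and 0.93) kept their direction and passed under both. Tnfrsf4 passed under neither (adjusted p = 0.13 and 0.97), and Tnfrsf18 (0.047 and 0.50) and Tnfrsf1a (0.015 and 0.14) passed with library totals only. Tnfrsf9 turned upward per T cell marker and passed there (0.30 ± 0.08, adjusted p = 0.0067). Relative to the T cell markers the falls of Tnfrsf4, Tnfrsf18 and Tnfrsf1a were thus not detectable.

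**Figure D3:**
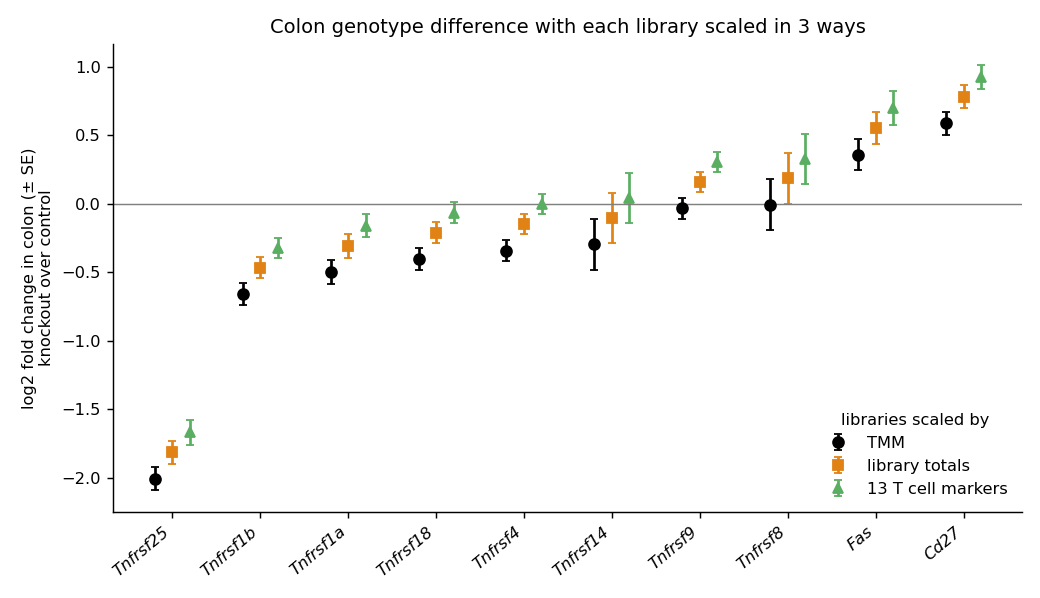
Log2 change of each receptor in the colon under 3 scalings of the libraries (TMM, library totals, T cell markers). Points carry standard errors. Tnfrsf25 and Tnfrsf1b stay below 0 and Cd27 and Fas above 0 under each, while Tnfrsf4 reaches 0.00 with the T cell markers.

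In culture, none of the 10 receptors passed the test for genotype. Only 4 of 13983 genes did (0.0286%), while 500 genes had an unadjusted p under 0.05 and DESeq2 called 7. With 1 library per genotype and mix, the mixes serve as repeats and 1 residual degree of freedom is left. Cd27 had the smallest unadjusted p of the receptors. It was at 90.7 CPM in the control and 115 in the knockout in the TGF-β mix, and at 27.7 and 33.7 in the IL-23 mix (log2 change 0.32 ± 0.08, adjusted p = 0.69). Knockouts thus had the higher value in both mixes, at 1.27 times (95% counting interval 1.18 to 1.36) and 1.22 times (1.07 to 1.39) the control. Fas was likewise higher in both knockouts, at 1.41 times (1.2 to 1.65) and 1.17 times (1.06 to 1.30) the control. Tnfrsf14 was at 17.3 and 19.0 CPM in the TGF-β mix and at 7.90 and 12.5 in the IL-23 mix, control first, which gives ratios of 1.10 (0.93 to 1.29) and 1.58 (1.25 to 2.00).

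Tnfrsf25 in culture was at 77.1 CPM in the control and 62.8 in the knockout in the TGF-β mix, and at 78.9 and 71.7 in the IL-23 mix. The knockout value was the lower in both mixes, at 0.81 (0.75 to 0.89) and 0.91 (0.84 to 0.99) of the control, but the gene did not pass (log2 change -0.22 ± 0.08, unadjusted p = 0.024, adjusted p = 1). No receptor reached a 2-fold difference between genotypes in either mix, where 0.157% and 0.207% of genes did. The intervals cover counting error only and not the spread between cultures.

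The genotype change in the colon minus that in culture was tested in 1 fit of all 8 libraries. In it 5 receptors passed, all with a change more negative in the colon, where 17.3% of 14886 genes passed and 9.57% passed in that direction. For Tnfrsf25 the difference was -1.80 ± 0.12 on the log2 scale (adjusted p = 8.4e-07), and for Tnfrsf1b it was -0.68 ± 0.11 (adjusted p = 0.0014). Tnfrsf4, Tnfrsf1a and Tnfrsf18 differed by 0.34 to 0.41, with adjusted p-values of 0.019, 0.044 and 0.044. The Tnfrsf25 and Tnfrsf1b differences passed under all 4 scalings and without any one of the 8 libraries, but those of Tnfrsf4, Tnfrsf1a and Tnfrsf18 did not pass with library totals (adjusted p = 0.19, 0.29 and 0.39) or T cell markers (0.61, 0.65 and 0.90). When control replicate 1 or either knockout library was left out, Tnfrsf1a (adjusted p = 0.14, 0.06 and 0.11) and Tnfrsf18 (0.14, 0.077 and 0.096) also did not pass, and without control replicate 2 Tnfrsf14 did (-0.89, adjusted p = 0.02). Without any one culture library neither Tnfrsf1a (adjusted p = 0.091 to 0.30) nor Tnfrsf18 (0.15 to 0.19) passed, and Tnfrsf4 did not pass without either library of the TGF-β mix (0.17 in each case). With those scalings 79.9% and 91.3% of the genes that passed were more positive in the colon, against 44.6% with TMM. Fas differed by 0.01 ± 0.16 and Cd27 by 0.26 ± 0.12 (adjusted p = 1 and 0.14), so a colon change unlike that in culture was not shown for the receptors that rose. Cd27 did pass with library totals (0.46, adjusted p = 0.013) and with T cell markers (0.56, adjusted p = 0.0047). Tnfrsf1a did not pass in DESeq2 (adjusted p = 0.1) nor Tnfrsf18 with no filter on low counts (0.051), whereas Tnfrsf9 passed with T cell markers (0.38, adjusted p = 0.025) and Tnfrsf14 with no filter (-0.67, adjusted p = 0.026).

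Between the cytokine mixes, 9 of the 10 receptors passed the edgeR test in culture. Here the genotypes serve as repeats and 1 residual degree of freedom is left. No condition had a second culture, so the p-values do not measure the spread between like cultures. Tnfrsf8, Tnfrsf9, Fas, Tnfrsf18, Tnfrsf1a and Tnfrsf1b were higher in the IL-23 mix than in the TGF-β mix, Cd27, Tnfrsf4 and Tnfrsf14 were lower, and Tnfrsf25 did not pass (log2 change 0.11, adjusted p = 0.24). Of all genes tested, 69.8% passed, 35.8% higher and 34% lower, so a call for the mix was the usual outcome, and sizes say more than counts. In the control pair 6 receptors differed 2-fold or more (background 20.6%), and in the knockout pair 5 did (20.2%), without Tnfrsf14.

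Tnfrsf8 encodes CD30, an activation receptor whose ligand CD30L is encoded by Tnfsf8. Its level was 2.72 CPM in the control and 2.51 in the knockout in the TGF-β mix, from 43 and 40 counts, and 298 and 292 CPM in the IL-23 mix, from 4523 and 4488 counts. The libraries of the IL-23 mix were far above every other library, the colon included (6.07 to 7.39 CPM). The ratio was 109 (81.1 to 151) in the control pair and 117 (85.4 to 163) in the knockout pair, and the fitted log2 change was 6.81 ± 0.11 (adjusted p = 7e-09). Tnfsf8 itself did not pass for the mix (log2 change 0.03, adjusted p = 0.75). Tnfrsf9 rose from 152 and 134 CPM to 1110 and 1082 CPM, 7.28-fold and 8.07-fold in the control and knockout pair. Those values exceed the colon range of 732 to 757 CPM.

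The promoters of Tnfrsf8 and Tnfrsf1b are shown here because these genes lie next to each other on the minus strand of chromosome 4 with 20.3 kb and no coding gene between them, yet moved differently with the mix. Tnfrsf8 spans chr4:145267137-145315164 and Tnfrsf1b chr4:145213463-145246870 (GRCm38/mm10). Each line gives the 250 bases before the RefSeq start (GRCm38.p6), Tnfrsf8 at chr4:145315165-145315414 and Tnfrsf1b at chr4:145246871-145247120. Capitals mark the AP-1 letters TGANTCA, the STAT letters TTCNNNGAA and the same NF-κB letters as above, on either strand and merged where matches overlap.
Tnfrsf8: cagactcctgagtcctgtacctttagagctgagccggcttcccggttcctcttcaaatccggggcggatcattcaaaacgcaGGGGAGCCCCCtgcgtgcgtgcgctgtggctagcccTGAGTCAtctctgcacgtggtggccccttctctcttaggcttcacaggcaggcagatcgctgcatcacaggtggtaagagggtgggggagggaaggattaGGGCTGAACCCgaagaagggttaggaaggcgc
Tnfrsf1b: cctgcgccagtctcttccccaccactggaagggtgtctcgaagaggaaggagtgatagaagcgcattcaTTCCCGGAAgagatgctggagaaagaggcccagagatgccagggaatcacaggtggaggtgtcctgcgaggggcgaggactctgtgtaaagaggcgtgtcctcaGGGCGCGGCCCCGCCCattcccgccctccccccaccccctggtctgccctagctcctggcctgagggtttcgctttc
The AP-1 letters occur 132 bases before the Tnfrsf8 start and not in the Tnfrsf1b window, and the STAT letters occur in the Tnfrsf1b window and not in that of Tnfrsf8. Over the 12 promoters of the receptors, 3 held the AP-1 letters (6.75% of all promoters), 6 the STAT letters (7.01%) and 9 the NF-κB letters (45.8%). Enrichment over all promoters was not tested. Some windows run into annotated exons, such as those of Tnfrsf18 (158 bases), Tnfrsf14 (125) and the second start of Tnfrsf9 (81). The RefSeq starts of Tnfrsf4, Tnfrsf18, Fas and Cd27 are not among the GENCODE M21 starts. Tnfrsf1b differed little between the mixes, at 50.7 and 49.5 CPM in the TGF-β mix and 57.4 and 59.8 in the IL-23 mix (log2 change 0.23, adjusted p = 0.033), and it did not pass in DESeq2 (0.23), with no filter on low counts (0.12) or with T cell marker scaling (0.29).

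Another adjacent pair also parted. Tnfrsf4 and Tnfrsf18 lie 9.55 kb apart with no coding gene between them, at chr4:156013843-156016612 and chr4:156026164-156028895. Tnfrsf4 was at 1099 and 1200 CPM in the TGF-β mix and at 613 and 607 in the IL-23 mix, a fall of 0.91 on the log2 scale (adjusted p = 7.6e-06). Tnfrsf18 went the other way, from 90.3 and 84.1 to 185 and 179 CPM (log2 change 1.06, adjusted p = 3.1e-06). Cd27 (chr6:125232622-125237010) and Tnfrsf1a (chr6:125349362-125362484), 112 kb apart with 3 coding genes between them, parted as well: Cd27 went from 90.7 and 115 CPM to 27.7 and 33.7 (log2 change -1.74, adjusted p = 4.9e-07), and Tnfrsf1a from 30.2 and 26.1 to 43.0 and 43.1 (0.62, adjusted p = 0.00048). In the colon, Tnfrsf4 and Tnfrsf18 had both fallen in the knockout, whereas Cd27 had risen and Tnfrsf1a had fallen.

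Fas rose with the IL-23 mix, from 17.0 and 23.9 CPM to 45.8 and 53.6 CPM (log2 change 1.29, adjusted p = 8.4e-06), and Tnfrsf14 fell (log2 change -0.85, adjusted p = 0.001). The libraries of the IL-23 mix also had higher summed levels of marker lists of other cells. These were 411 to 447 against 1.83 to 2.07 CPM summed over 9 fibroblast markers, nearly all of it Lum (387 to 422 CPM), with Col3a1 and Bgn at 0, and 85.8 to 102 against 3.29 to 3.95 over 6 neutrophil markers, mostly Ly6g, with S100a8, S100a9 and Csf3r at 0. The sums were also higher for 8 dendritic cell markers (287 to 310 against 39.7 to 50.2 CPM, Clec9a at 0), 10 macrophage markers (32.9 to 34.8 against 2.28 to 2.57, with C1qa, C1qb, C1qc, Lyz2 and Fcgr1 at 0), 7 endothelial markers (69.1 to 76.6 against 17.1 to 21.5, Tek and Emcn at 0) and 9 B and plasma cell markers (48 to 62.1 against 13.7 to 20.1). Single genes carried most of these sums as well. They were Cd74 and H2-Ab1 in the dendritic list, Cd68 in the macrophage list, Pecam1 in the endothelial list and Sdc1 in the B and plasma list. H2-Aa (0.20 and 0.07 against 0.82 and 0.94 CPM) and Igkc (0.26 and 1.11 against 1.27 and 1.76) were lower in the IL-23 mix. The part of such transcripts in the receptor changes was not tested. Whether the mix acted alike in both genotypes could not be tested with 1 library of each kind.

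**Figure D4:**
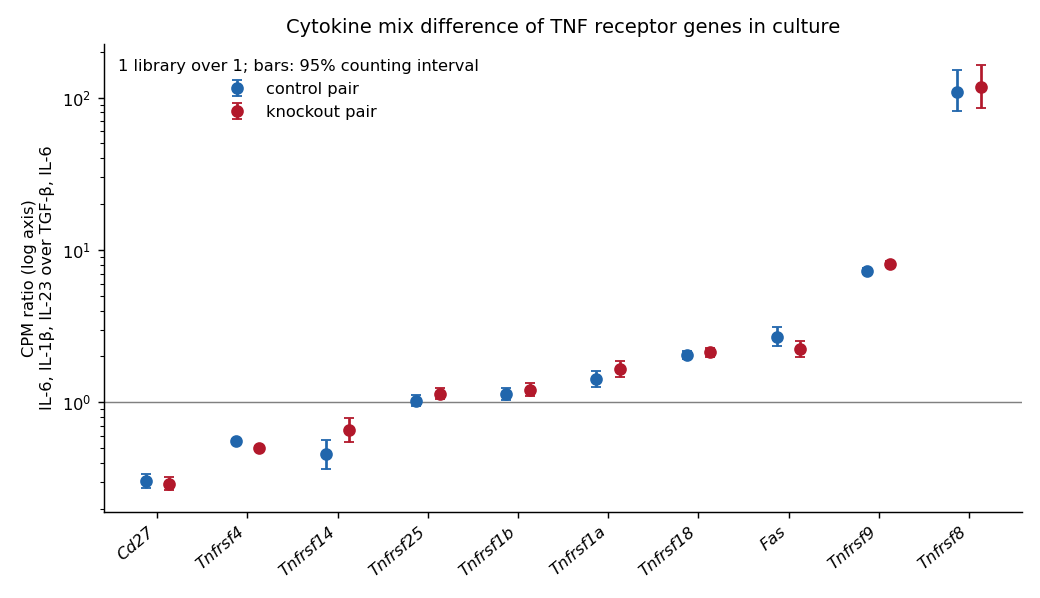
Ratio of the level in the IL-23 mix to that in the TGF-β mix (log axis) for each receptor, in the control pair and the knockout pair, with 95% counting intervals. Tnfrsf8 stands at 109 and 117, Tnfrsf9 at 7.28 and 8.07, and Cd27 lowest at 0.31 and 0.29.

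Per kilobase of exon, Tnfrsf4 was the most abundant receptor in the colon controls, at 1390 ± 35.2 CPM per kb (SD, n = 2). Tnfrsf9 (278 ± 0.31), Tnfrsf1b (239 ± 11.8) and Tnfrsf18 (223 ± 12.7) followed, of which Tnfrsf1b and Tnfrsf18 overlapped. Tnfrsf25 came next at 118 ± 8.32, and then Tnfrsf1a (34.4), Cd27 (22.1), Fas (14.3), Tnfrsf14 (8.86) and Tnfrsf8 (1.96). In the colon knockouts Tnfrsf25 was at 29.3 ± 0.26 CPM per kb, between Tnfrsf1a (24.3 ± 0.55) and Cd27 (33.2 ± 0.40). In the TGF-β mix, Tnfrsf4 led (805 and 879) and Tnfrsf8 was lowest (0.79 and 0.73). In the IL-23 mix, Tnfrsf4 (449 and 444) and Tnfrsf9 (408 and 398) stood close together.

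Across the 8 libraries, the genes whose level was most like that of Tnfrsf25 were Hgsnat (Pearson r = 0.993), Zyx (0.982), Cry1 (0.981), Lrrc8c (0.977) and Fbxw8 (0.973), out of 9693 genes compared. Cry1, a repressor of the circadian clock, was at 154 and 167 CPM in the colon controls and at 62.9 to 76.5 CPM in the other 6 libraries. Such an r is a description: the 8 points share their libraries and rest mainly on the pair of colon controls.

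Ligands of the TNF family moved in both directions in the colon. Of 9 tested, 3 fell, 2 rose and 4 did not pass, where 39.5% of all genes tested passed (19.6% higher, 19.9% lower). Ltb, part of the lymphotoxin that signals to stromal cells, was at 1264 and 1432 CPM in controls and 647 and 644 in knockouts (log2 change -1.06 ± 0.08, adjusted p = 5.6e-06). Lta fell by 0.81 and Tnf, the ligand of Tnfrsf1a and Tnfrsf1b, by 0.48, from 2495 and 2564 to 1762 and 1861 CPM. Tnfsf8, the CD30 ligand, rose from 1690 and 1873 to 2256 and 2542 CPM (0.43 ± 0.09, adjusted p = 0.0027), and Tnfsf4, the OX40 ligand, rose from 5.52 and 5.57 to 9.12 and 8.40 CPM (0.66 ± 0.17, adjusted p = 0.0087). Tnfsf15, which encodes the DR3 ligand TL1A, was at 0.54 CPM or less in all 8 libraries, and Tnfsf18, the GITR ligand, had no count in the colon. The falls of Ltb and Lta passed under each scaling, but Tnf did not with T cell markers (-0.14, adjusted p = 0.16), where 2 ligands fell and 5 rose. Both partners of HVEM were higher in the knockouts: Btla went from 55.1 and 56.5 to 102 and 111 CPM, and Cd160 from 121 and 109 to 173 and 169 CPM.

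Downstream of the receptors, 5 of 6 TRAF genes passed. The share of all genes tested in the colon was 39.5% (19.6% higher, 19.9% lower). That share also applies to the TMM counts of NF-κB and death genes below. Traf1, Traf2 and Traf4 fell (by 0.42, 0.47 and 0.68 on the log2 scale), Traf5 rose (0.66) and so did Traf6 (0.27). With T cell marker scaling Traf4 still fell (-0.34, adjusted p = 0.0044), Traf1 and Traf2 did not pass (-0.08 and -0.13, adjusted p = 0.41 and 0.18), and Traf3, Traf5 and Traf6 rose. Traf1, which NF-κB induces, was at 1235 and 1225 CPM in controls and 882 and 954 in knockouts. Of 17 NF-κB genes, 8 fell, 3 rose and 6 did not pass, with a median of -0.22. This split depended on the scaling: 3 fell and 6 rose with library totals (median -0.03), and 2 fell and 7 rose with T cell markers (median 0.11). The largest fall was that of Bcl3, an atypical IκB protein, from 407 and 475 to 202 and 178 CPM (-1.21 ± 0.10, adjusted p = 6e-06), and Nfkb2 fell by 0.59 and Nfkbia by 0.44. Bcl3 (-0.88) and Nfkb2 (-0.25, adjusted p = 0.021) fell with T cell markers too, and Nfkbia did not pass there (-0.10, adjusted p = 0.34). Of 10 genes of death signalling, Tradd, the adaptor of DR3 and TNFR1, fell (-0.44 ± 0.09), Bid, Birc3, Casp8 and Cflar rose by 0.25 to 0.46, and 5 did not pass. That count of 5 changed genes went to 9 with library totals (8 higher) or T cell markers (9 higher, with Tradd not passing, adjusted p = 0.42), to 3 in DESeq2, to 1 without control replicate 2 and to 3 without either knockout replicate.

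Among 13 other receptors of the superfamily that could be tested in the colon, 6 rose and 2 fell. Of all genes tested there, 19.6% rose and 19.9% fell. Of the receptors that rose, Ltbr, Tnfrsf11a, Tnfrsf13c and Tnfrsf17 were near the floor, with at most 39 counts in any colon library. Tnfrsf23 and Tnfrsf26 fell by 0.52 and 0.46, and Tnfrsf12a rose by 0.57. With T cell markers neither Tnfrsf23 (adjusted p = 0.18) nor Tnfrsf26 (0.32) passed. Tnfrsf17, the receptor BCMA of plasma cells, was at 0.07 and 0.08 CPM in controls and 1.10 and 1.23 in knockouts, beside the B and plasma cell transcripts given above. In culture, no gene of these lists of ligands, partners, TRAF, death or NF-κB genes or other receptors passed for genotype. With the cytokine mix, Fasl (-2.55), Tnfsf9, the 4-1BB ligand (-2.26), Tnfsf14, the HVEM ligand LIGHT (-1.81), and Tnf (-1.40) fell on the log2 scale in the IL-23 mix, while Tnfsf4 (0.69), Lta (0.26) and Ltb (0.21) rose. With T cell marker scaling, which shifted the median of all genes by -0.11 here, 1 ligand rose and 4 fell. Tnfsf9 went from 48.8 and 49.5 to 8.62 and 11.98 CPM while its receptor Tnfrsf9 rose, and Fasl went from 5.57 and 6.39 to 0.86 and 1.17 CPM while Fas rose. Traf1 rose with the mix by 1.04 and Bcl3 by 1.32, and Tnfrsf26 rose from 92.7 and 109 to 396 and 394 CPM.

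**Figure D5:**
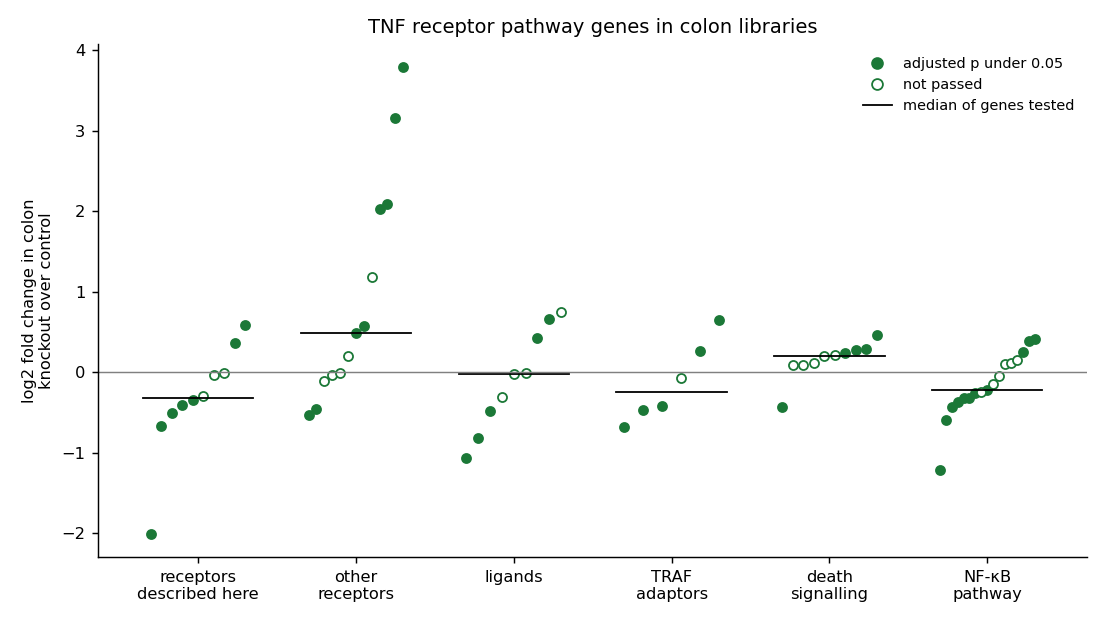
Log2 change of knockout against control in the colon for the 10 receptors, other receptors of the superfamily, ligands, TRAF adaptors, death signalling and NF-κB genes, with 1 point per gene tested and a bar at each median. Filled points passed an adjusted p of 0.05. Ltb (-1.06) and Bcl3 (-1.21) lie lowest in their groups.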

How the data were processed

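The deposited values were whole-number read counts per gene, with no normalization, in 8 files of 1 library each, per the file headers. Per the submitters' processing notes, Trim Galore, Bowtie2, featureCounts, edgeR and DESeq2 were used with mm10. Their roles and versions and the strand setting are not given in the sources used here. Library totals ranged from 13176752 to 15922696 counts.

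Counts were tested in R 4.3.3 with edgeR 4.0.16 (quasi-likelihood test, filterByExpr, TMM scaling) and Benjamini-Hochberg adjustment over all genes tested, with a threshold of 0.05. All 10 members passed the filter in each fit. The colon was fitted alone (2 against 2), the cultures with terms for genotype and mix, and the difference between colon and culture in 1 fit of 53657 genes joined by symbol, because the files differ in annotation. CPM were TMM-scaled within colon and within culture. Single pairs of culture libraries have no p-value: ratios of CPM carry exact 95% counting intervals, and counts of genes use a 2-fold difference in log2 ratios with a prior count of 2 and 5 CPM in either library. Standard errors are the log2 change divided by the square root of F. Exon lengths and positions came from GENCODE M21, and promoters from RefSeq (10 of 10 members matched). The fits were tested on simulated data.

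In each file 27 (colon) or 26 (culture) symbols had been turned into dates and were not used. Replicates of a colon group differed by more than counting error (chi-square of 7.57 and 5.51 per gene). Nothing says that they are separate mice, so the p-values rest only on how far these libraries spread, which may be technical. The members, the gene lists and the tests were chosen with earlier results of these data known. The text names the 10 members, the 5 genes most like Tnfrsf25, and genes from the lists. Alternatives were DESeq2 1.42.0, RLE scaling, library totals, T cell marker scaling, no filter on low counts, a prior count of 0.5, a replicate block and leaving out each colon library. Leaving out each culture library in the comparison of colon with culture, and the scalings of the gene lists by direction, were added after seeing the data.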

Additional observations from a re-analysis of the deposited data

Results flagged for a closer look

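For 5 receptors the genotype change in the colon differed from that in culture by the test of the difference itself (edgeR, 8 libraries). Of all 14886 genes tested, 17.3% passed, and 9.57% passed in the same direction. The differences in log2 change, colon minus culture, were -1.80 for Tnfrsf25, -0.68 for Tnfrsf1b, -0.41 for Tnfrsf1a, -0.40 for Tnfrsf4 and -0.34 for Tnfrsf18. Those of Tnfrsf1a, Tnfrsf4 and Tnfrsf18 did not pass with library totals or with T cell marker scaling. Colon and cultured cells also differ in origin, time and cytokines, and the T cell marker sum was 8490 to 8780 CPM in colon knockouts against 10800 to 11100 in controls, while in culture it was 6710 and 7420 against 7070 and 7410. Their part in the differences was not tested.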

How the results depend on the processing

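In the colon, between 6 and 8 members passed when any one library was left out, and 4198 to 5133 genes did. The 4 members that kept direction and call under each scaling are named with the results. Values that turned sign in the colon were those of Tnfrsf8 (0.18 with library totals, 0.33 with T cell marker scaling, 0.12 without control replicate 1, 0.11 without knockout replicate 2, in a range of -0.17 to 0.12), Tnfrsf9 (0.16 and 0.30 with these scalings) and Tnfrsf14 (0.04 with T cell marker scaling). DESeq2 called 3658 genes in the colon. The number of genes called for genotype in culture, 4, became 9 with RLE scaling, 9 with library totals, 75 with T cell marker scaling, 0 with no filter on low counts (edgeR) and 7 in DESeq2, and no member was among the calls. For the difference between colon and culture, 3 members passed with library totals and 3 to 6 when a colon library was left out, with 1676 to 2455 genes. There Fas turned to -0.006 in DESeq2, -0.05 without control replicate 2 and -0.13 without knockout replicate 2 (range -0.13 to 0.13), and Tnfrsf8 to -0.11 without control replicate 2 and -0.12 without knockout replicate 1 (range -0.12 to 0.16). In an alternative chosen after seeing the data, leaving out any one culture library from that comparison left 2 to 3 members and 743 to 1356 genes, Tnfrsf9 at -0.002 to 0.14 and Fas at -0.15 to 0.13. The cause of these moves was not tested.

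With a replicate block in the colon, 6230 genes passed against 5173 without it. Again 7 members passed, and no call of a member changed. The SE of Tnfrsf25 went from 0.085 to 0.069 with the block. Same-numbered libraries deviated together only weakly (correlation 0.153 over 13101 genes, 2 pairs). With 2 replicates the crossed value is its mirror by construction (-0.153), so this cannot decide whether the numbers pair the samples. The main fit had no block. In the fits of the cultures alone no library was left out, since they have 1 residual degree of freedom. Depth limits Tnfrsf8 in the colon and in the TGF-β mix (40 to 108 counts per library).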
